A study of Homo sapiens with 18 samples.

Results

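C-type lectin receptors are membrane proteins of myeloid cells that carry a fold first known from calcium-dependent sugar binding. The 9 measured here were chosen by name, with earlier results of these data known: CLEC2B, CLECL1, CLEC4A, CLEC4E, CLEC5A, CLEC7A, CLEC10A, CLEC12A and CD209. Every probe set whose only gene symbol was one of these was used, which gave 102 probe sets of the 261273 with a single symbol, and 9 of the 16933 genes that had a probe set. The log2 values of a gene's probe sets were averaged, and all values below are on that scale, on which 1 unit is a 2-fold difference in array signal. CLEC5A and CLEC12A had only 2 probe sets each, and CLEC7A had the most, 25.

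The study put 3 human myeloid leukaemia lines on exon arrays to look for effects of phorbol 12-myristate 13-acetate (PMA), which activates protein kinase C and drives such lines towards a macrophage-like state. HL60 cells were derived from an acute myeloid leukaemia, THP-1 cells from an acute monocytic leukaemia and U937 cells from a histiocytic lymphoma. Cells of each line received PMA at 30 nM for 3 days, or only its vehicle, dimethyl sulfoxide (DMSO), for 3 days, and each of the 6 groups (HL60 PMA, HL60 DMSO, THP-1 PMA, THP-1 DMSO, U937 PMA and U937 DMSO) has 3 arrays. Each line is a single established culture line, so a difference between lines is one between these 3 lines. The labels do not say whether the arrays of a group came from separate cultures, and p-values then measure only the spread between these samples, which may be technical.

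C-type lectin receptors differ in how they signal. CLEC7A (Dectin-1) binds fungal beta-glucan and signals through a tyrosine motif of its own, while CLEC4E (Mincle) and CLEC5A (MDL-1) have none and rely on the adaptors FCER1G and TYROBP, which hand the signal to the kinase SYK. CLEC4A and CLEC12A carry an inhibitory motif that recruits phosphatases such as PTPN6. CD209 (DC-SIGN) and CLEC10A bind sugars on pathogens and on other cells, and CLEC2B (AICL) and CLECL1 are themselves ligands or co-stimulators for lymphocytes.

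The array labelled U937 PMA replicate 2 stood apart: it had the lowest median, 6.18, and 83228 distinct values, while the other arrays had 214471 to 220516. Both U937 arrays numbered 2 shared few exactly equal values with another array of their line (0 to 5), while the other pairs of arrays within a line shared 39 to 116 and pairs from different lines shared 0 to 7. Whether these 2 arrays, or the lines, were normalized apart was not tested, and the U937 changes were also computed without both arrays. Correlations between arrays of a group ran from 0.931 to 0.978. All 12 myeloid markers were measured, and their mean level was 8.95 in HL60 PMA and 8.74 in HL60 DMSO arrays, 8.76 in THP-1 PMA and 8.07 in THP-1 DMSO arrays, and 8.67 in U937 PMA and 7.64 in U937 DMSO arrays. ITGAX, an integrin of macrophages, lay at 10.2 in HL60 PMA and 5.93 in HL60 DMSO. It lay at 9.85 in THP-1 PMA and 6.84 in THP-1 DMSO, and at 10.5 in U937 PMA and 5.65 in U937 DMSO. The markers did not all move this way. ITGAM and CSF1R were also higher with PMA in every line, but CSF3R was lower in every line, and LYZ in HL60 and THP-1. MPO lay at 6.72 in HL60 PMA and 12.6 in HL60 DMSO, and CSF3R at 6.43 in THP-1 PMA and 8.33 in THP-1 DMSO. The files used give no detection call, and 22 genes of other organs, such as albumin, had group means anywhere between 2.13 and 7.80. A low value of a receptor therefore cannot be read as presence or absence. Over the 18 arrays, CLEC2B, CLEC5A, CLEC12A and CD209 averaged above 5.17, the 30th percentile of all probe-set means, and the other 5 receptors lay below it.

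With PMA, 5 of the 9 receptors were called in HL60 cells, 2 in THP-1 cells and 5 in U937 cells, at an adjusted p under 0.05 in limma with Benjamini-Hochberg adjustment over all genes. Of all genes with at least 3 probe sets, 23% were called in HL60 (12.3% higher and 10.7% lower), 22.6% in THP-1 (9.37% higher and 13.2% lower) and 22% in U937 (5.5% higher and 16.5% lower). Over all genes with at least 1 probe set, the fit that gave CLEC5A and CLEC12A, the shares were 22.4%, 21.9% and 21.3%. In HL60, CLEC2B and CLEC7A rose, and CLEC4E, CLEC5A and CLEC12A fell. In THP-1, CLEC5A and CD209 rose and none fell (0 lower at an unadjusted p under 0.05 in limma). In U937, CLEC7A and CD209 rose, and CLEC2B, CLECL1 and CLEC12A fell. No receptor was called in all 3 lines, and CLEC2B and CLEC5A were called in opposite directions in a pair of lines. In THP-1 the share called was close to that of all genes. The median size of the change, without its sign, was 0.59, 0.36 and 1.81 over the 9 receptors in HL60, THP-1 and U937, beside 0.31, 0.32 and 0.26 over all genes. Since the receptors were chosen with earlier results of these data known, these counts and sizes are a description only. In these bulk samples, fewer cells that carry a receptor and less of its RNA per cell cannot be told apart.

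**Figure D1:**
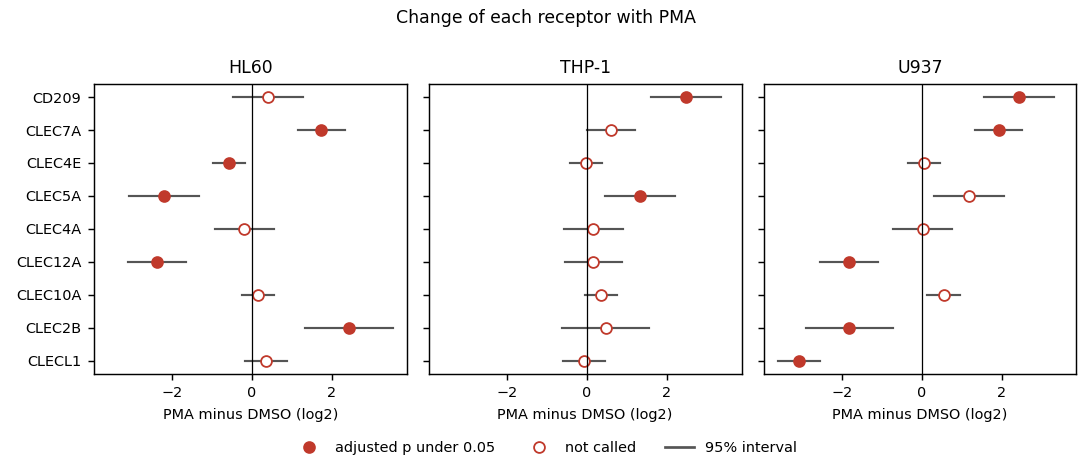
Difference of PMA minus DMSO (x axis, log2) for the 9 receptors in each line, with the 95% interval from limma as a bar; filled points have an adjusted p under 0.05 over all genes. CLEC5A and CLEC2B lie on opposite sides of 0 in HL60 and U937, and CLEC4A lies close to 0 in every line.

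CLEC7A, the receptor for fungal beta-glucan, was higher with PMA in HL60 and U937 cells, and its PMA and DMSO arrays did not overlap in any of the 3 lines. HL60 PMA arrays had 5.68, 5.52 and 5.27, against 4.16, 3.53 and 3.60 in HL60 DMSO arrays. U937 PMA arrays had 5.50, 4.03 and 4.68, against 2.94, 2.71 and 2.79 in U937 DMSO arrays. The lowest of these PMA values was that of U937 PMA replicate 2, and it was still above every U937 DMSO array. The change was 1.73 ± 0.28 in HL60 (SE, limma adjusted p = 0.000145) and 1.92 ± 0.28 in U937 (adjusted p = 7.83e-05). Without both U937 arrays numbered 2 it was 2.23 in U937 (adjusted p = 0.000114).

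In THP-1 cells CLEC7A did not pass the test. THP-1 PMA arrays had 3.09, 3.08 and 3.60, against 2.57, 2.57 and 2.81 in THP-1 DMSO arrays. The difference of 0.61 ± 0.28 was not called (limma adjusted p = 0.144), but was called with the replicate number as a block (adjusted p = 0.0292) and with centred arrays. The PMA effect in THP-1 minus that in U937 was -1.32 ± 0.40 (adjusted p = 0.0746, and 0.00773 with the block), and -1.67 without U937 PMA replicate 2 (adjusted p = 0.00526). That in HL60 exceeded that in THP-1 by 1.12 ± 0.40 (adjusted p = 0.108, and 0.0146 with the block).

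CLEC4E, which senses mycobacterial glycolipid and damaged cells, was low throughout. In HL60, PMA arrays had 2.85, 2.84 and 2.49, against 3.41, 3.07 and 3.46 in HL60 DMSO arrays, and these groups did not overlap. The fall of CLEC4E in HL60 was small, -0.59 ± 0.19 (limma adjusted p = 0.0303), at a level in the lower range of the genes of other organs. It was no longer called without HL60 DMSO replicate 1 (-0.54, adjusted p = 0.108), without HL60 DMSO replicate 3 (-0.51, adjusted p = 0.109) or without HL60 PMA replicate 3 (-0.47, adjusted p = 0.154). In THP-1 the difference was -0.02 (95% interval -0.41 to 0.38) and in U937 it was 0.06 (-0.33 to 0.46), and the groups overlapped in both. By the test of the difference, the effect in HL60 minus that in THP-1 was -0.57 ± 0.27 (limma adjusted p = 0.270). Minus that in U937 it was -0.65 ± 0.27 (adjusted p = 0.182). Neither was called, but some alternatives other than leaving out 1 array called them (lowest limma adjusted p = 0.0418 and 0.00922).

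CLEC5A, the TYROBP-coupled receptor that binds dengue virus, moved in opposite directions in HL60 and THP-1 cells. HL60 PMA arrays had 8.49, 8.30 and 6.45, against 10.06, 10.09 and 9.71 in HL60 DMSO arrays. THP-1 PMA arrays had 5.63, 5.90 and 4.99, against 3.97, 4.50 and 4.11 in THP-1 DMSO arrays. All of these THP-1 values lay within the range of the genes of other organs. U937 PMA arrays had 11.91, 11.13 and 11.04, against 10.44, 10.39 and 9.72 in U937 DMSO arrays. Every PMA array was below its DMSO arrays in HL60 and above them in THP-1 and U937, and HL60 PMA replicate 3 was the lowest of its group by a wide margin.

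The change of CLEC5A was -2.21 ± 0.41 in HL60 (limma adjusted p = 0.000619), 1.32 ± 0.41 in THP-1 (adjusted p = 0.0295) and 1.17 ± 0.41 in U937 (adjusted p = 0.0540). Leaving out 1 array left the HL60 change between -2.58 and -1.56, called each time. With the replicate block, the U937 change was called too (adjusted p = 0.00479). The THP-1 call was lost without THP-1 DMSO replicate 1 (adjusted p = 0.102), DMSO replicate 3 (0.0637), PMA replicate 1 (0.0935) or PMA replicate 2 (0.113). The PMA effect in HL60 minus that in THP-1 was -3.52 ± 0.59 (adjusted p = 0.000865), and minus that in U937 it was -3.38 ± 0.59 (adjusted p = 0.00119). Both probe sets of CLEC5A were called lower in HL60, and 1 of the 2 was called higher in THP-1 and 1 in U937.

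The promoter window of CLEC5A, the 250 bases before and 50 after its RefSeq start, is shown because its direction differed between the lines. It lies at chr7:141946925-141947224 on the minus strand of GRCh38.p14, and capitals mark GAGGAA, a core recognised by the myeloid factor PU.1, on either strand.
CLEC5A: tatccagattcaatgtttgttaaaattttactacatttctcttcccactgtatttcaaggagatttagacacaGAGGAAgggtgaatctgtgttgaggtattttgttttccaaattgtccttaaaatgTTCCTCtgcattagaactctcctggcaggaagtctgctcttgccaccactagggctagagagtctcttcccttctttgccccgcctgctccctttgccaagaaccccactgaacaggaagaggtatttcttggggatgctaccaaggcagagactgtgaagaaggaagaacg

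The 2 matches in CLEC5A begin 177 bases before the start on the printed strand and 122 bases before it on the other. GAGGAA occurs on either strand in 27.9% of 35116 promoter windows of this length, so a match is a description only. The other motifs searched on both strands were TGANTCA for AP-1 (in 7.71% of windows), TGACGTCA for CRE (1.85%), TTGCNNAA for C/EBP (10.5%), GCGNGGGCG for EGR (9.43%) and TGTGGT for RUNX (13.1%), and none of these letters is in this window.

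CLEC12A, an inhibitory receptor for uric acid crystals that is used as a marker of myeloid leukaemia cells, was lower with PMA in HL60 and U937 cells. In HL60, its PMA arrays had 5.07, 4.81 and 4.22, against 7.69, 7.04 and 6.50 in HL60 DMSO arrays. In U937, its PMA arrays had 5.61, 5.97 and 5.61, against 8.02, 7.16 and 7.45 in U937 DMSO arrays. In both lines every PMA array was below every DMSO array. The change was -2.38 ± 0.34 in HL60 (limma adjusted p = 4.54e-05) and -1.81 ± 0.34 in U937 (adjusted p = 0.000859). Without both U937 arrays numbered 2 the U937 change was -2.13 (adjusted p = 0.00383).

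In THP-1, CLEC12A was already low, and the groups overlapped. THP-1 PMA arrays had 3.62, 4.59 and 3.30, against 3.97, 3.56 and 3.49 in THP-1 DMSO arrays, a difference of 0.16 (95% interval -0.56 to 0.89). The PMA effect in HL60 minus that in THP-1 was -2.54 ± 0.48 (limma adjusted p = 0.00268), and the effect in THP-1 was above that in U937 by 1.98 ± 0.48 (adjusted p = 0.0232). The second call was lost without THP-1 DMSO replicate 2 (1.92, adjusted p = 0.0589) or 3 (1.88, adjusted p = 0.0549), THP-1 PMA replicate 2 (1.60, adjusted p = 0.0653), U937 DMSO replicate 1 (1.74, adjusted p = 0.0765) or U937 PMA replicate 1 (1.92, adjusted p = 0.0566). A further 8 probe sets are annotated to both CLEC12A and its neighbour CLEC12B. Taken as 1 gene value, they gave -1.79 ± 0.43 in HL60 (adjusted p = 0.00514), -1.62 ± 0.43 in U937 (adjusted p = 0.0115) and -0.78 ± 0.43 in THP-1 (adjusted p = 0.235), so the sign in THP-1 differed between the 2 sets of probe sets, with neither called.

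CLEC4E, CLEC5A and CLEC12A all fell in HL60 cells, CLEC4E by the least, and the CLEC4E window is not printed. On the strand opposite to the gene's it holds 1 GAGGAA, beginning 175 bases before the start, and 1 TTGCNNAA, 107 bases before it. The CLEC12A window is shown beside that of CLEC5A. It lies at chr12:9971159-9971458 on the plus strand of GRCh38.p14, and capitals mark 1 GAGGAA, 65 bases before the start, and 1 TGTGGT, 184 bases before it.
CLEC12A: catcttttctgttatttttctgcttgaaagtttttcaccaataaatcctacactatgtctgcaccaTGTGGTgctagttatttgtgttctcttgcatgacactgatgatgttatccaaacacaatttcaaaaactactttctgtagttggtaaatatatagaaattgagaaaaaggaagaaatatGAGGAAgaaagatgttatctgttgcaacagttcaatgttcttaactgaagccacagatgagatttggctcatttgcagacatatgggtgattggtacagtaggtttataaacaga

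CLEC4A (DCIR), the other inhibitory receptor, was called in no line, and its PMA and DMSO arrays overlapped in all 3. In HL60, CLEC4A had 4.86, 4.33 and 4.05 in PMA arrays, against 5.58, 4.36 and 3.88 in HL60 DMSO arrays. Its differences were -0.19 in HL60 (95% interval -0.93 to 0.55), 0.16 in THP-1 (-0.58 to 0.90) and 0.03 in U937 (-0.71 to 0.77).

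CD209, the mannose-binding receptor of dendritic cells and some macrophages, rose with PMA in THP-1 and U937 cells. THP-1 PMA arrays had 8.54, 8.09 and 8.75, against 5.68, 5.58 and 6.72 in THP-1 DMSO arrays. In U937, its PMA arrays had 7.42, 6.32 and 8.74, against 5.05, 5.16 and 4.97 in U937 DMSO arrays. In HL60, its PMA arrays had 5.25, 5.34 and 5.44, against 4.92, 4.82 and 5.12 in HL60 DMSO arrays. PMA arrays were above DMSO arrays in every line, but in HL60 by far less, and the U937 PMA arrays were spread over more than 2 units, with U937 PMA replicate 2 the lowest.

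The change of CD209 was 2.47 ± 0.42 in THP-1 (limma adjusted p = 0.000267) and 2.43 ± 0.42 in U937 (adjusted p = 0.000342). Without both U937 arrays numbered 2, the U937 change was 3.07 (adjusted p = 0.00016). In HL60 the difference was 0.39 (95% interval -0.49 to 1.27, adjusted p = 0.568). By the test of the difference, the effect in HL60 minus that in THP-1 was -2.08 ± 0.59 (adjusted p = 0.0370), and minus that in U937 it was -2.04 ± 0.59 (adjusted p = 0.0412). Both were near the threshold. The first was lost on leaving out any single HL60 array, THP-1 DMSO replicate 1 or 2, or THP-1 PMA replicate 1 or 3 (adjusted p from 0.0590 to 0.102). The second was lost on leaving out any single HL60 or U937 DMSO array or U937 PMA replicate 1 (adjusted p from 0.0648 to 0.0869), and with median polish (adjusted p = 0.0510).

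CLEC4M, a close paralogue of CD209 whose probes may also bind CD209 RNA, was measured at the same time, and it was singled out after its values were seen. It was higher by 1.34 ± 0.24 in THP-1 (limma adjusted p = 0.000526) and by 1.06 ± 0.24 in U937 (adjusted p = 0.00384), and its correlation with CD209 over the 18 arrays was 0.953. How far the paralogues share signal was not tested. Among 10 dendritic-cell markers, the mean level was 5.65 in HL60 PMA and 5.04 in HL60 DMSO, 5.21 in THP-1 PMA and 4.83 in THP-1 DMSO, and 4.70 in U937 PMA and 4.74 in U937 DMSO. Of these 10, those above the 30th percentile numbered 7 in HL60 PMA and 4 in HL60 DMSO, 6 in THP-1 PMA and 3 in THP-1 DMSO, and 3 in each U937 group. The part of such cells in the CD209 values was not tested.

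The CD209 window is shown as that of the receptor with the largest rise. It lies at chr19:7747485-7747784 on the minus strand of GRCh38.p14, and none of the 6 motifs is in it, so it is printed without capitals.
CD209: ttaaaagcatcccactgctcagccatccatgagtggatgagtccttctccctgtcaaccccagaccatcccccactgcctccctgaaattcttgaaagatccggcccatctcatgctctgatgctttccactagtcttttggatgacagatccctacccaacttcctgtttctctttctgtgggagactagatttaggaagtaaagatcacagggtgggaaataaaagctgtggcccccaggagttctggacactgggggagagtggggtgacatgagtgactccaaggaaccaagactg

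CLEC10A, which binds galactose and N-acetylgalactosamine on macrophages and dendritic cells, was called in no line. Its values were 5.50, 4.66 and 5.01 in U937 PMA arrays, against 4.33, 4.40 and 4.79 in U937 DMSO arrays, and these groups overlapped. The difference in U937 was 0.55 ± 0.19 (limma adjusted p = 0.0508), and it was called with the replicate block (adjusted p = 0.0331). Quantile normalization and centred arrays called it too. Leaving out replicate 2 of both U937 groups gave 0.69 (adjusted p = 0.0171). In HL60, PMA arrays had 4.51, 4.65 and 4.53, against 4.47, 4.37 and 4.41 in DMSO arrays, a difference of 0.15 (95% interval -0.26 to 0.55). In THP-1, PMA arrays had 4.49, 4.33 and 4.17, against 4.0, 3.87 and 4.05 in DMSO arrays, a difference of 0.36 (-0.05 to 0.76). The HL60 and THP-1 arrays did not overlap between conditions, but neither difference was called.

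CLEC2B, an activation-induced ligand of the natural killer cell receptor KLRF1, rose in HL60 cells and fell in U937 cells. Its values were 7.15, 4.99 and 4.66 in HL60 PMA arrays, against 3.47, 2.81 and 3.25 in HL60 DMSO arrays. In U937, its PMA arrays had 8.64, 8.14 and 6.92, against 10.22, 9.78 and 9.14 in U937 DMSO arrays. HL60 PMA replicate 1 was well above the other arrays of its group, and neither line's groups overlapped. The change was 2.42 ± 0.52 in HL60 (limma adjusted p = 0.00180) and lay between 1.64 and 2.89 when 1 array was left out, called each time.

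In U937 the change of CLEC2B was -1.81 ± 0.52 (limma adjusted p = 0.0166), and that call was less firm. It was lost without both U937 arrays numbered 2 (-1.90, adjusted p = 0.0879), without U937 DMSO replicate 1 (-1.55, adjusted p = 0.0840), DMSO replicate 2 (-1.78, adjusted p = 0.0518) or PMA replicate 3 (-1.32, adjusted p = 0.0886), and when probe sets were summarised by median polish (adjusted p = 0.0754). THP-1 PMA arrays had 2.91, 3.38 and 2.58, against 2.60, 2.25 and 2.59 in THP-1 DMSO arrays, which overlapped. The effect in HL60 exceeded that in U937 by 4.23 ± 0.73 (adjusted p = 0.00107). It exceeded that in THP-1 by 1.95 ± 0.73 (adjusted p = 0.134, and 0.00973 with the replicate block), and that in THP-1 exceeded that in U937 by 2.28 ± 0.73 (adjusted p = 0.0983, and 0.00494 with the block).

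CLECL1, a co-stimulatory lectin-like protein of B cells and dendritic cells, had the largest change of the 9, and it was in U937 cells. U937 PMA arrays had 5.84, 5.28 and 5.41, against 9.12, 8.55 and 8.08 in U937 DMSO arrays, and the groups were far apart. The change was -3.07 ± 0.25 (limma adjusted p = 2.28e-07). Leaving out replicate 2 of both U937 groups gave -2.97. In HL60, PMA arrays had 2.42, 3.03 and 2.50, against 2.00, 2.73 and 2.19 in HL60 DMSO arrays. THP-1 PMA arrays had 2.15, 2.18 and 2.13, against 2.21, 2.29 and 2.21 in THP-1 DMSO arrays. In both of these lines CLECL1 lay near the bottom of the measured range. The PMA effect in HL60 exceeded that in U937 by 3.42 ± 0.35 (adjusted p = 6.40e-06), and that in THP-1 exceeded that in U937 by 2.99 ± 0.35 (adjusted p = 5.87e-05). The mean level of 4 B-cell markers was 5.68 in U937 PMA and 5.88 in U937 DMSO arrays.

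**Figure D2:**
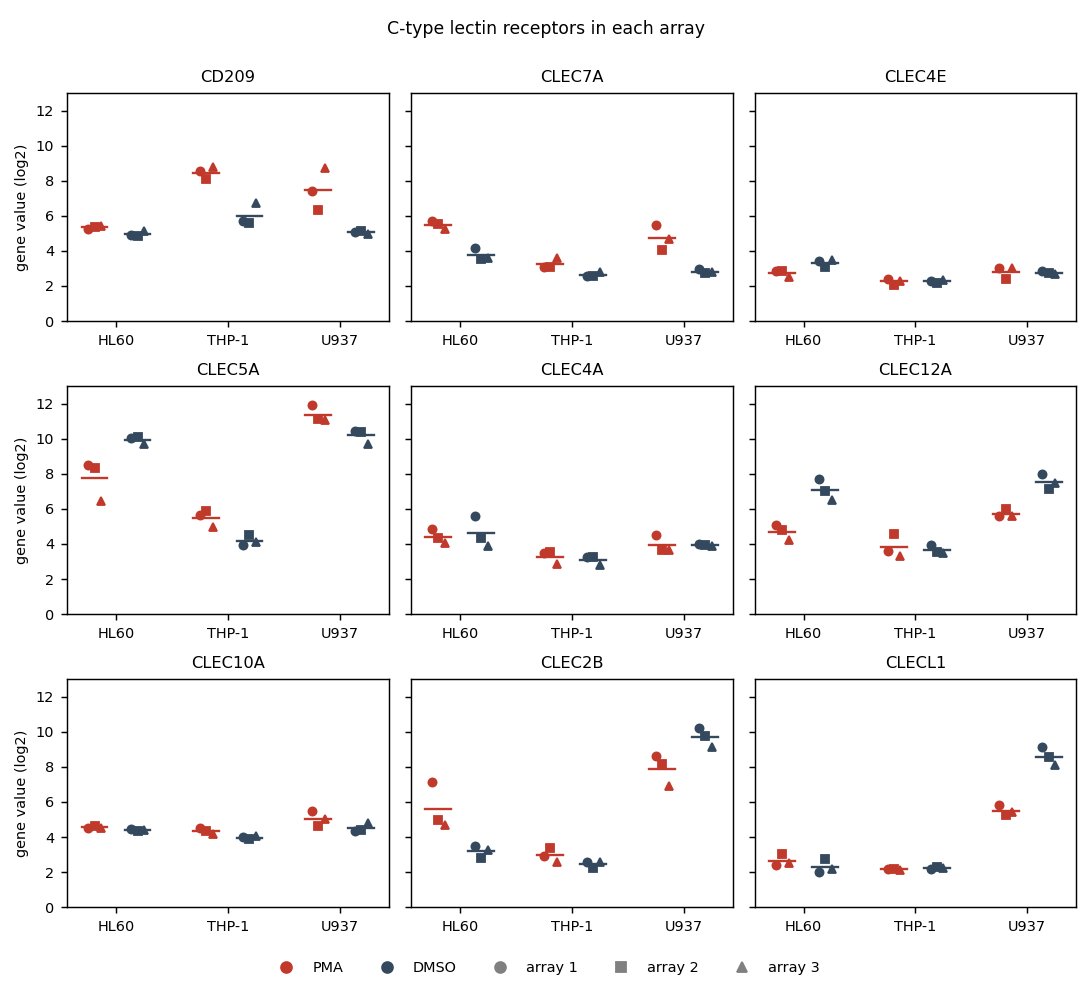
Log2 value of each receptor (y axis) on every array, by line, with PMA to the left of DMSO; points are arrays, with a shape for each array number, and the line is the group mean. CLEC2B and CLECL1 stand high only in U937 PMA and U937 DMSO arrays, apart from CLEC2B in HL60 PMA arrays, and CD209 stands high in THP-1 PMA and U937 PMA arrays.

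Starting levels, in cells with DMSO alone, were set side by side between the lines as deposited. DMSO arrays had medians from 6.43 to 6.95, and since equal values were shared mostly within a line, a difference between lines and a separate normalization of each line cannot be told apart. Between HL60 and THP-1, 5 of the 9 receptors were called, all higher in HL60 (16.6% of genes with at least 3 probe sets were called, 5.8% higher and 10.8% lower). Between HL60 and U937, 4 were called, 2 in each direction (22.9% of all genes, 3.86% higher and 19% lower). Between THP-1 and U937, 5 were called, all lower in THP-1 (26.2% of all genes, 7.54% higher and 18.7% lower). Over genes with at least 1 probe set, the shares called were 16.1%, 22% and 25.3%. The median of the 9 was -0.82 for THP-1 minus U937, beside -0.31 over all genes.

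On the deposited scale, CLEC2B and CLECL1 were high in U937 DMSO arrays alone. CLEC2B averaged 3.18 ± 0.34 in HL60 DMSO, 2.48 ± 0.20 in THP-1 DMSO and 9.71 ± 0.55 in U937 DMSO arrays (SD, n = 3 each), and HL60 minus U937 was -6.53 ± 0.52 (SE, limma adjusted p = 7.23e-08). CLECL1 averaged 2.31 in HL60 DMSO and 2.23 in THP-1 DMSO arrays, and the fitted differences were -6.28 ± 0.25 for HL60 minus U937 (adjusted p = 2.19e-11) and -6.35 ± 0.25 for THP-1 minus U937 (adjusted p = 1.67e-11). These HL60 and THP-1 levels of both genes lay in the lower range of the genes of other organs, so the sizes rest on values that cannot be told from background and are not exact. For both genes the HL60 and THP-1 levels did not differ beyond their spread (adjusted p = 0.413 for CLEC2B and 0.880 for CLECL1). The alternatives other than leaving out 1 array include quantile normalization and centred arrays. Over them, HL60 minus U937 ran from -7.40 to -6.21 for CLEC2B and from -6.29 to -5.95 for CLECL1.

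THP-1 DMSO arrays had low values of CLEC5A and CLEC12A, within the range of the genes of other organs. The sizes of HL60 minus THP-1 for both thus rest on values that cannot be told from background, and are not exact. CLEC5A averaged 9.96 ± 0.21 in HL60 DMSO, 4.19 ± 0.27 in THP-1 DMSO and 10.19 ± 0.40 in U937 DMSO arrays (SD, n = 3 each), and HL60 minus THP-1 was 5.76 ± 0.41 (SE, limma adjusted p = 2.43e-08). CLEC12A averaged 7.08 ± 0.60, 3.67 ± 0.26 and 7.54 ± 0.43 in the same order, and HL60 minus THP-1 was 3.41 ± 0.34 (adjusted p = 1.29e-06). HL60 and U937 did not differ beyond their spread in CLEC5A (adjusted p = 0.761) or CLEC12A (adjusted p = 0.391). Over the alternatives other than leaving out 1 array, HL60 minus THP-1 ran from 5.76 to 5.85 for CLEC5A and from 3.41 to 3.49 for CLEC12A.

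In DMSO arrays, CLEC4A, CLEC4E and CLEC7A had higher values in HL60 than in THP-1, by 1.50 ± 0.35 (limma adjusted p = 0.00538), 1.04 ± 0.19 (adjusted p = 0.000629) and 1.11 ± 0.28 (adjusted p = 0.00948). Their means were 4.61, 3.31 and 3.76 in HL60 DMSO and 3.11, 2.27 and 2.65 in THP-1 DMSO arrays. All of these lay within the range of the genes of other organs. They cannot be told from background, and the sizes are not exact. CLEC7A in HL60 was also above that in U937 by 0.95 ± 0.28 (adjusted p = 0.0205). Without HL60 DMSO replicate 1, CLEC7A was called neither against THP-1 (0.92, adjusted p = 0.0591) nor against U937 (0.75, adjusted p = 0.0964), and without U937 DMSO replicate 2 not against U937 (0.90, adjusted p = 0.0670). With median polish it was not called against U937 either (0.65, adjusted p = 0.141). CD209 was called in no pair of lines in the fit reported, but under some alternatives it was. HL60 minus THP-1, -1.04 (limma adjusted p = 0.108), was called with the lines compared alone (adjusted p = 0.0172) and on leaving out replicate 2 of both U937 groups (0.0346). THP-1 minus U937, 0.93 (adjusted p = 0.105), was called with quantile normalization (1.14, adjusted p = 0.0288), with centred arrays (1.17, adjusted p = 0.0282) and on leaving out the same U937 arrays (0.98, adjusted p = 0.0455). The HL60 minus U937 difference of CLEC4E, 0.57 ± 0.19 (adjusted p = 0.0380), and the THP-1 minus U937 difference of CLEC10A, -0.53 ± 0.19 (adjusted p = 0.0490), were near the threshold. The first was lost on leaving out HL60 DMSO replicate 1 or 3 or any U937 DMSO array (adjusted p from 0.0756 to 0.145), and with the lines compared alone (adjusted p = 0.0841). The second was lost on leaving out any array of either group (adjusted p from 0.0601 to 0.199), and under each other setting but the one without both U937 arrays numbered 2 (adjusted p from 0.0509 to 0.261).

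When the PMA effects themselves were compared, 3 of the 9 receptors differed between HL60 and THP-1, all lower in HL60 (7.78% of all genes were called, 4.88% higher and 2.9% lower). Between HL60 and U937, 4 differed, 2 in each direction (7.73%, with 5.98% higher and 1.75% lower), and between THP-1 and U937, 2 differed, both higher in THP-1 (4.76%, with 3.14% higher and 1.62% lower). Over genes with at least 1 probe set, the shares called were 7.42%, 7.31% and 4.51%. The genes behind these counts are CLEC5A, CLEC12A and CD209 for HL60 and THP-1, CLEC2B, CLECL1, CLEC5A and CD209 for HL60 and U937, and CLECL1 and CLEC12A for THP-1 and U937. With the replicate block the counts were 5, 4 and 4, through CLEC2B and CLEC7A. The third count was 1 wherever the CLEC12A call was lost, as given above.

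An exon array measures each gene at several places, and within a line the called probe sets of a receptor all had the same sign. Of the 102 probe sets, 19 were called higher and 7 lower in HL60 (16% of all probe sets were called, 7.69% higher and 8.35% lower). In THP-1, 23 were called higher and none lower (14.5%, with 5.36% higher and 9.16% lower, and 1 receptor probe set lower at an unadjusted p under 0.05 in limma), and in U937, 31 were called higher and 9 lower (13.5%, with 3.32% higher and 10.2% lower). CD209 was called higher in 17 of its 18 probe sets in THP-1, 14 in U937 and 0 in HL60 (also 0 at an unadjusted p under 0.05 in limma). Without THP-1 DMSO replicate 2, 13 receptor probe sets were called in THP-1. CLEC7A was called higher in 12 of 25 in HL60, 3 in THP-1 and 14 in U937. CLECL1 was called lower in 5 of 5 in U937, and CLEC2B was called higher in 5 of 9 in HL60 and lower in 3 of 9 in U937.

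**Figure D3:**
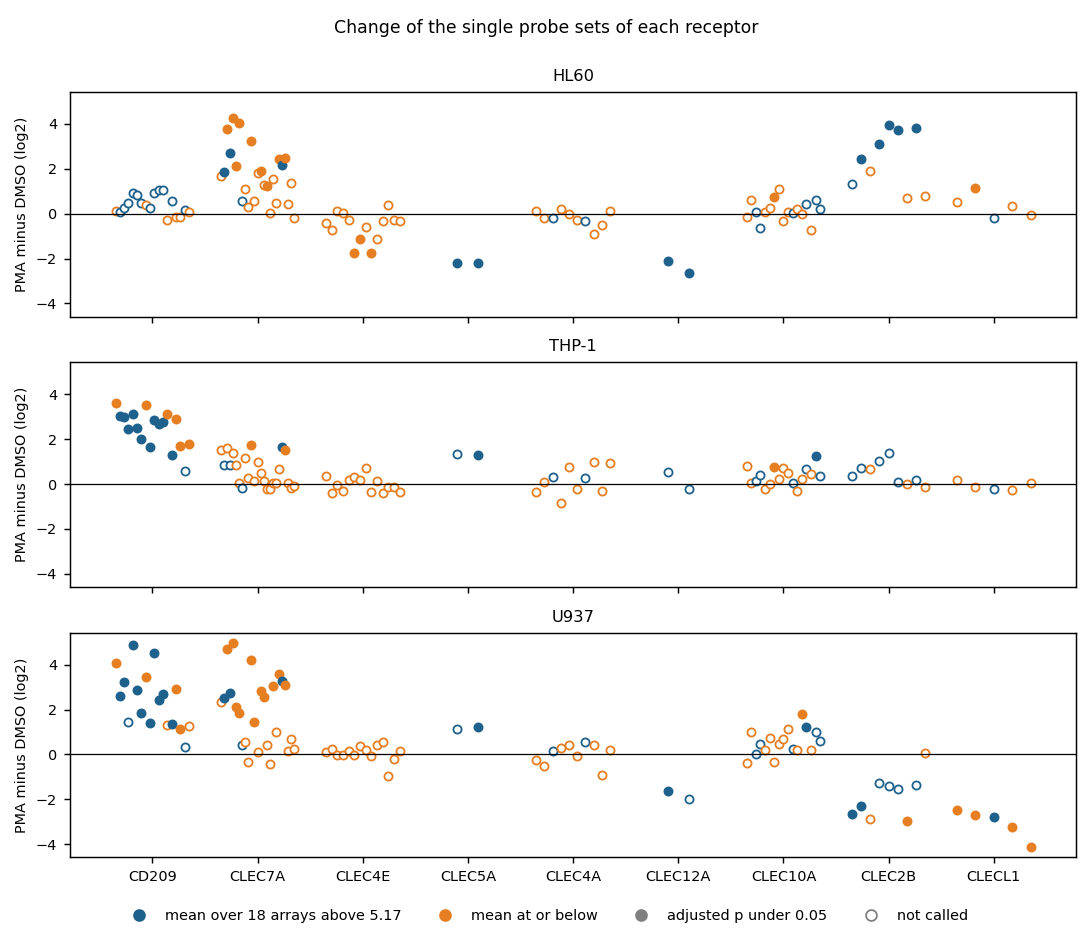
Difference of PMA minus DMSO (y axis, log2) of every probe set of the receptors (x axis, by gene) in each line; filled points have an adjusted p under 0.05, and blue marks a mean over the 18 arrays above 5.17, orange one at or below it. All 18 CD209 probe sets lie above 0 in THP-1 and U937, all 5 of CLECL1 lie below 0 in U937, and those of CLEC7A range from near 0 to above 4 in HL60 and U937.

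Probe sets that changed apart from their gene were sought by a splicing index. It sets each probe set's value against the mean of its gene's probe sets above the 30th percentile. In the splicing index, the gene's change is the change of that mean, which can differ from the change of the gene value given above. In the 3 receptor genes with enough probe sets above the 30th percentile, 24 probe sets were tested, and 1, 1 and 3 were called in HL60, THP-1 and U937, beside 3.45%, 1.79% and 1.23% called among all probe sets tested. In CD209, probe set 3848558 was below the gene's change by -1.74 ± 0.36 in THP-1 (limma adjusted p = 0.0148) and by -2.12 ± 0.36 in U937 (adjusted p = 0.00562). Its own value was 8.18 in THP-1 PMA and 7.60 in THP-1 DMSO arrays, and 8.22 in U937 PMA and 7.87 in U937 DMSO arrays.

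In U937, probe set 3848545 of CD209 was above the gene's change by 2.40 ± 0.32 (limma adjusted p = 0.000859), with values of 9.98 in U937 PMA and 5.12 in U937 DMSO arrays, and probe set 3848551 was above it by 2.05 ± 0.30 (adjusted p = 0.00178). In CLEC2B, probe set 3443892 was below by -1.75 ± 0.31 in HL60 (adjusted p = 0.00284). The function diffSplice is limma's own test of a probe set against the other tested probe sets of its gene. With diffSplice the 3 CD209 probe sets were still called in U937, while 3848558 in THP-1 (adjusted p = 0.0798) and 3443892 in HL60 (adjusted p = 0.179) were not. Whether these differences reflect exon use was not tested. The THP-1 call was lost without THP-1 DMSO replicate 1 or 2 or PMA replicate 1 or 3, and without U937 PMA replicate 2 there were 5 in U937.

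Of the 9 receptors, 6 lie on chromosome 12, while CLEC5A lies on chromosome 7, CLEC10A on 17 and CD209 on 19. The stretch of chromosome 12 from CLEC2D to OLR1 holds 14 protein-coding genes in RefSeq, 13 of them measured, among them CLECL1, CLEC2B, CLEC12A and CLEC7A, and it was chosen after its values were seen. In U937, CLEC2A, which lies next to CLEC2B, had 6.30 in PMA and 8.83 in DMSO arrays, a fall of -2.52 ± 0.21 (limma adjusted p = 3.15e-07), and CLEC12B fell by 1.53 (adjusted p = 0.000124). CD69, between CLECL1 and CLEC2B, had 7.84 in U937 PMA and 8.20 in U937 DMSO arrays and was not called (adjusted p = 0.594). OLR1, the oxidised LDL receptor at the other end beside CLEC7A, rose by 4.52 in HL60, 2.62 in THP-1 and 2.53 in U937. The falls in U937 thus stood beside rises of CLEC7A and OLR1 in the same stretch.

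**Figure D4:**
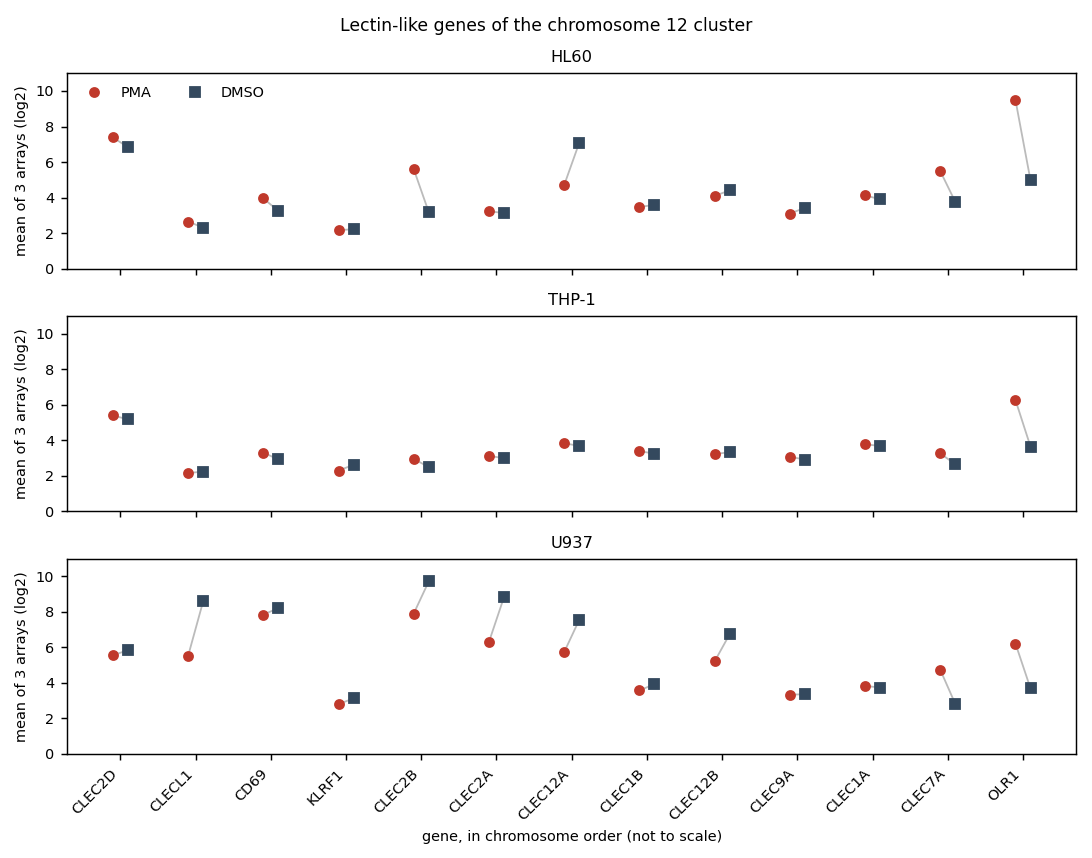
Mean log2 value of 3 arrays (y axis) with PMA (circles) and DMSO (squares) for the 13 measured genes of the chromosome 12 stretch in their RefSeq order (x axis, not to scale), 1 panel per line. In U937 the PMA means of CLECL1, CLEC2B, CLEC2A, CLEC12A and CLEC12B lie below their DMSO means, and those of CLEC7A and OLR1 lie above.

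Among 28 measured of 32 other C-type lectin-like receptors, 2 rose and 3 fell in HL60, 3 rose and 2 fell in THP-1, and 4 rose and 5 fell in U937, beside 23%, 22.6% and 22% of all genes called in either direction. The median change of these 28 was 0.18, 0.17 and -0.05, beside 0.13, 0.04 and -0.07 over all genes, so nothing particular to them is read from these counts. OLR1 rose and CD302, an endocytic receptor, fell in each line, CD302 by 3.07 in HL60, 1.77 in THP-1 and 1.74 in U937. FCER2, the low-affinity IgE receptor, rose by 2.15 in THP-1 and 3.09 in U937, and the thrombin-binding receptor THBD rose by 1.37 in HL60. Of 8 measured lectin-like receptors of the natural killer complex, only KLRG1 was called in HL60 (1.10), KLRC1 in THP-1 (1.61) and KLRG1 in U937 (-0.93), and their median change was 0.17, 0.25 and -0.26. These calls stand beside 23%, 22.6% and 22% of all genes called, so nothing particular is read from them either.

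The adaptors that CLEC5A and CLEC4E depend on rose in all 3 lines. TYROBP had 10.98 in HL60 PMA and 9.21 in HL60 DMSO, 11.26 in THP-1 PMA and 9.11 in THP-1 DMSO, and 10.72 in U937 PMA and 8.01 in U937 DMSO arrays, with changes of 1.77, 2.14 and 2.71. FCER1G rose by 1.70, 2.51 and 1.69 in the same order. CLEC5A thus fell in HL60 while the adaptor it pairs with rose. SYK, the kinase below them, was lower in every line, by -1.33 ± 0.21 in HL60 (limma adjusted p = 8.87e-05), -0.78 ± 0.21 in THP-1 (adjusted p = 0.0102) and -0.67 ± 0.21 in U937 (adjusted p = 0.0249), and it was singled out after its values were seen. Among 23 measured of 25 signalling partners, 9 rose and 2 fell in HL60, 6 rose and 4 fell in THP-1, and 6 rose and 5 fell in U937, beside 12.3%, 9.37% and 5.5% of all genes called higher and 10.7%, 13.2% and 16.5% called lower. Their median change was 0.28, 0.20 and 0.25, beside 0.13, 0.04 and -0.07 over all genes. The kinase FGR rose by 2.78, 1.85 and 2.67.

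Among 12 partners and counter-receptors, 3 rose and 5 fell in HL60, and 2 rose and 1 fell in THP-1 and in U937, beside 23%, 22.6% and 22% of all genes called. The count was near that background in THP-1 and U937. Their median change was -0.07, 0.30 and 0.35. TLR2, which works with CLEC7A on fungal particles, fell by 1.19 in HL60 and rose by 2.41 in U937. FCGR1A fell by 2.40 in HL60 and rose by 1.21 in U937. ICAM3, a ligand of CD209, rose by 1.53 in THP-1, where CD209 rose too. Of 15 measured genes known to be induced downstream of CLEC7A and CLEC4E, 4 rose and 1 fell in HL60, and 5 rose in THP-1 and 7 in U937 with none falling (0 lower in either at an unadjusted p under 0.05 in limma). Of all genes, 12.3%, 9.37% and 5.5% were called higher in HL60, THP-1 and U937, and 10.7%, 13.2% and 16.5% lower. EGR2 rose by 6.01 in HL60, 3.03 in THP-1 and 3.67 in U937, IL1B by 5.32, 6.54 and 3.97 in that order, and CXCL8 by 2.20, 2.49 and 2.95. Signalling by the receptors themselves was not measured. The median change of these 15 was 0.32, 0.58 and 0.93, beside 0.13, 0.04 and -0.07 over all genes.

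Genes whose pattern over the 18 arrays was most like that of a receptor were ranked by Pearson correlation among all genes tested, as a description, since the arrays share lines and treatment. CLECL1 was closest to CLEC2A (0.994), HDGFL3 (0.990) and NAV2 (0.989). CLEC2B was closest to CD69 (0.956), COX8C (0.953) and GAD1 (0.947). CLEC7A was closest to CD86 (0.949), AQP9 (0.944) and CD101 (0.940). CLEC12A was closest to FAS (0.967), ROPN1L (0.951) and STAMBPL1 (0.941), and CLEC5A to EMD (0.942), ACAP1 (0.939) and CSGALNACT2 (0.932). CD209 followed CLEC4M (0.953), TMEM63A (0.941) and SLFN5 (0.934). For CLEC4E the closest were weaker, EPB41L3 (0.886), NCOA4 (0.885) and OR2Z1 (0.870).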

How the data were processed

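For 18 arrays the authors deposited log2 values per core probe set (exon level), from 0.58 to 14.4. Per the submitters' processing notes, Affymetrix Expression Console was used, with no version stated. Not given in the sources used here are the background correction, the normalization and the genome build. Values were used as deposited. The 9 receptors and all gene lists were chosen with earlier results of these data known.

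Of 287329 probe sets, 261273 carried 1 symbol, 9155 several and 16901 none. Of 16941 symbols, 14546 were current, 2276 were updated and 119 were kept as given. Probe sets of a gene were averaged, and the 16260 genes with at least 3 were tested. CLEC5A and CLEC12A, with 2, were taken from a fit over all 16933 genes.

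One limma fit (limma 3.58.1 in R 4.3.3, with the data.table package, 1.17.8) held the 6 group means, and contrasts were PMA minus DMSO in each line, differences between lines with DMSO, and differences of PMA effects. A call is a Benjamini-Hochberg adjusted p under 0.05 over all genes. The fit had 12 residual degrees of freedom. Figures were drawn with matplotlib 3.10.9. The procedure was tested on simulated data.

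Same-numbered PMA and DMSO arrays deviated together from their group means in every line (correlations of 0.285 to 0.790), so the numbers, which come from the labels, were taken to pair the arrays. Some differently numbered arrays also correlated, for each PMA array less than with its own number. The highest was 0.436, for THP-1 PMA replicate 2, beside 0.642 with its own number. That is above the same-number values of THP-1 PMA replicate 1 (0.402) and U937 PMA replicate 2 (0.285). The fit without the block was the planned one and is reported, so its p-values do not use this pairing. Receptor calls that the block changed are given with it.

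All 9 receptors are named. From each other list, up to 3 called genes per line with the largest change are named, and for each receptor called in any line the 3 genes closest in pattern. Promoter windows are from RefSeq (GRCh38.p14). Of the 9, CLEC4E, CLEC5A, CLEC12A and CD209 matched one, and CLEC2B, CLECL1, CLEC4A, CLEC7A and CLEC10A were not matched. Coordinates of probe sets were not used here. Alternatives were quantile normalization, centred arrays, median polish, filters on level, genes with at least 1 probe set, lines fitted alone, the replicate block, and leaving out arrays. The number of arrays limits the precision: the median SE of a PMA effect was 0.226, and of a difference of effects 0.320.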

Additional observations from a re-analysis of the deposited data

Results flagged for a closer look

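The PMA effect of 5 receptors differed between lines by the test of the difference itself (limma, adjusted over all genes). CLEC2B differed by 4.23 for HL60 minus U937. CLECL1 differed by 3.42 for HL60 minus U937 and by 2.99 for THP-1 minus U937. CLEC5A differed by -3.52 for HL60 minus THP-1 and by -3.38 for HL60 minus U937. CLEC12A differed by -2.54 for HL60 minus THP-1 and by 1.98 for THP-1 minus U937. CD209 differed by -2.08 for HL60 minus THP-1 and by -2.04 for HL60 minus U937. For CLECL1, and for CLEC12A in THP-1, the starting level of the line with the smaller effect was low (2.31 in HL60 DMSO and 2.23 in THP-1 DMSO for CLECL1, 3.67 in THP-1 DMSO for CLEC12A), and its part in the difference was not tested. For CD209, and for CLEC12A between THP-1 and U937, calls were lost without single arrays, as given above.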

How the results depend on the processing

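No receptor result that was called changed direction under any alternative that tested it. Of 12 called PMA changes, 11 stayed called under every alternative that tested them, other than leaving out 1 array, and CLEC2B in U937 did not. These alternatives were fewer for dim receptors. The filter on the level of genes left out CLEC4E, CLEC7A and CLECL1, so it could not test their calls. CLEC4E had no probe set that passed the filter on the level of probe sets, so that filter could not test it either. Of 1251 alternative values of single receptors, 59 lost a call and 45 gained one, and where no value or construction is named below the cause was not tested. Dim genes cannot be told from background here, so a small fall at a low level, as for CLEC4E, is limited by signal.

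With only genes above the 30th percentile, where 4 of the 9 receptors are left to test, 3 receptors were called in HL60, 2 for HL60 minus THP-1 with DMSO, 1 for HL60 minus U937, 3 for THP-1 minus U937, and 1 for the difference of effects between THP-1 and U937. The last comparison then had 472 genes called. With probe sets above it, 13, 14 and 19 receptor probe sets were called in HL60, THP-1 and U937. With every probe set in the splicing index, 8, 2 and 11 were called apart from their gene, and with diffSplice 0 in HL60 and 0 in THP-1 (2 in each at an unadjusted p under 0.05).

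With the replicate block, 5645 genes were called in THP-1 and 5403 in U937, against 3667 and 3573 without it. For differences of effects it called 2523 genes for HL60 minus THP-1, 2668 for HL60 minus U937 and 1649 for THP-1 minus U937, with 5 and 4 receptors in the first and last. Beyond the CLEC2B, CLEC5A, CLEC7A and CLEC10A values given with it above, it changed no other call.

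Quantile normalization called 4198 genes for HL60 minus THP-1 with DMSO, and for differences of effects 2322 genes and 5 receptors for HL60 minus THP-1 and 1393 genes for THP-1 minus U937. Centred arrays gave 4428, 2161 and 1329 genes. With PMA in U937, both scalings called 7 receptors, with CLEC5A and CLEC10A added. Centred arrays called 3 in THP-1, with CLEC7A added. Lines fitted alone gave 2051 genes for the first difference of effects. Without both U937 arrays numbered 2 there were 4046 for HL60 minus THP-1 and 7072 for THP-1 minus U937 with DMSO, and 2080 for the first difference of effects.

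Scaling moved the median of all genes in U937 from -0.07 as deposited to 0.12 with quantile normalization and 0.17 with centred arrays, for HL60 minus U937 with DMSO from -0.23 to 0.04 and 0.10, for THP-1 minus U937 from -0.31 to -0.08 and -0.07, and the effect differences from 0.23 to -0.03 and -0.06 for HL60 minus U937, from 0.06 to -0.04 and -0.07 for HL60 minus THP-1 and from 0.16 to 0.01 and 0.01 for THP-1 minus U937. The share of called genes that were lower was 75.0%, 51.7% and 49.6% in U937 under these settings, 58.4%, 49.9% and 48.2% in THP-1, 65.0%, 52.0% and 46.7% for HL60 minus THP-1, 83.1%, 55.5% and 51.8% for HL60 minus U937 and 71.3%, 50.7% and 50.9% for THP-1 minus U937 with DMSO. For the effect differences it was 22.7%, 42.3% and 46.3% for HL60 minus U937 and 34.1%, 49.8% and 50.8% for THP-1 minus U937.

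Leaving out each array in turn, called receptors ranged from 4 to 5 in HL60, 1 to 2 in THP-1 (where CLEC5A was lost, as given above) and 4 to 6 in U937, from 4 to 5, 2 to 4 (2 without HL60 DMSO replicate 1 or U937 DMSO replicate 2) and 4 to 4 between lines, and from 2 to 3, 3 to 5 and 1 to 3 for differences of effects. Called genes ranged from 3002 to 3495, 2575 to 3682 and 2568 to 4041 with PMA, from 1959 to 2584, 2517 to 3512 and 2948 to 3812 between lines, and from 902 to 1201, 887 to 1945 (the highest without U937 PMA replicate 3) and 560 to 1186 (the highest without U937 PMA replicate 2) for differences of effects. Receptor probe sets called ranged from 19 to 25, 13 to 19 and 33 to 44, and those called apart from 1 to 1, 0 to 1 and 3 to 5.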
